A study of Mus musculus with 6 samples.

Results

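H3K4me1 peaks were examined at 9 genes of the surface epithelium: the transcription factor genes Trp63, Grhl1, Grhl2, Grhl3, Ovol1, Ovol2 and Klf5, the splicing regulator gene Esrp1, and Epcam, which encodes an adhesion molecule of the epithelial cell surface. They are 9 of the 21755 genes annotated as protein-coding on the autosomes and X. A peak was assigned to a gene when it overlapped the gene body or the 5 kb on either side, here called the gene window, or when its place of maximum signal lay at most 100 kb from a start site of the gene and nearer to it than to a start site of any other protein-coding gene. The rule assigns peaks by position only, but the genes themselves were chosen with earlier results of these data known.

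The study profiled H3K4me1, the histone mark left by a single methyl group on lysine 4 of histone H3, by CUT&Tag in whisker pads of wild-type mouse embryos (strain label B6/J2) at embryonic day 12. In CUT&Tag a transposase is brought to the mark by an antibody and cuts out the DNA around it for sequencing. There were 6 samples, of which 3 were H3K4me1 libraries and 3 were IgG controls. Control libraries were not analysed here, and the values below have no IgG background to be set against. Each H3K4me1 sample, called replicate 1, 2 or 3 after the pad number in its title, was 1 whisker pad sample dissociated to single cells, and it held surface epithelium and the underlying mesenchyme together. A weaker peak in such a mixture cannot be told apart between fewer cells that carry the mark and less of the mark per cell. Titles gave whisker pad for every sample, but the source name read adult kidney for 4 of them, including replicates 2 and 3 of H3K4me1. For this reason marker genes of both tissues are given with the results.

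H3K4me1 lies at enhancers, whether active or only prepared for use, and on both sides of many active promoters. p63, the product of Trp63, maintains the stratified epithelial lineage. Grainyhead-like factors control barrier formation and epithelial junctions. OVOL factors hold back mesenchymal genes in epithelial cells, and ESRP1 favours the epithelial splice forms of many transcripts.

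The peak lists held 16788, 12969 and 13998 peaks in replicates 1, 2 and 3. Signal in them was the pileup of fragments, not scaled to depth. Strength is therefore given as a percentile, the share of peaks in the same list with an equal or lower total signal. A low percentile is still a strong stretch of the genome, because only the top 1% of signal blocks was kept in each replicate. The study aimed at one common depth of sequencing for its libraries, but the lists give no read numbers, and the depth reached in each was not measured here. In its place, a peak had a median total signal of 27606.5 units in replicate 1, 44891 in replicate 2 and 35144.5 in replicate 3.

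The genes of this set fell into 3 kinds. Grhl3 had broad, strong H3K4me1 peaks in every pad, Grhl2, Ovol2 and Trp63 had 1 to 3 shorter stretches apiece in every pad or in 2 of them, and Ovol1, Klf5, Esrp1 and Epcam had no peak in any pad. Grhl1 stood between, with a peak in replicates 1 and 2 only. Over all protein-coding genes, 71.2% had no peak in their gene window in any replicate. In all, 28 peaks were assigned, namely 11, 9 and 8 by replicate (mean 9.33 ± 1.53, SD, n = 3). Merged where they overlapped by at least 1 bp, they formed 13 regions, 6 of them shared by all 3 replicates, 3 by 2 replicates and 4 found in only one.

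DNA from the strongest shared region of Grhl3, Grhl2 and Trp63 is shown first, with a further stretch of Grhl3, because the findings below refer to these regions. Each is 200 bases of GRCm38 on the plus strand, centred on the maximum of replicate 1. Capitals mark the places of maximum signal that fall inside it, those of all 3 replicates in Grhl3 intron 1, of replicates 1 and 2 upstream of Grhl2, and of replicate 1 in the others. The window in Grhl3 intron 1 was added after its values were seen, because the maxima of the 3 pads nearly coincided there.
Grhl3, intron 1, chr4:135570648-135570847: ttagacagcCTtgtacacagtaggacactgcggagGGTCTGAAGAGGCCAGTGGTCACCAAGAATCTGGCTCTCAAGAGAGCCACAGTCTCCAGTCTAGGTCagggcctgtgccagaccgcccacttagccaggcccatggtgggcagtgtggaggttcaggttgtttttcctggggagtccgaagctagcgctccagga
Grhl3, around a maximum in intron 12, chr4:135549255-135549454: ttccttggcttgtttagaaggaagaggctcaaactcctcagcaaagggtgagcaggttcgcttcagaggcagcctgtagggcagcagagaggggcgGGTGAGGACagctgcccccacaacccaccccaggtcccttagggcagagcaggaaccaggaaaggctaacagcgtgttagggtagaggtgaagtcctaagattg
Grhl2, upstream, chr15:37199437-37199636: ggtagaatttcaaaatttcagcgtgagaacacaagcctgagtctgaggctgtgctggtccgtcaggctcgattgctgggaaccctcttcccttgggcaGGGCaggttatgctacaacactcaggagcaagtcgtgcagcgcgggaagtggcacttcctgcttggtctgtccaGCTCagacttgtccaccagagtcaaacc
Trp63, intron 4, chr16:25849641-25849840: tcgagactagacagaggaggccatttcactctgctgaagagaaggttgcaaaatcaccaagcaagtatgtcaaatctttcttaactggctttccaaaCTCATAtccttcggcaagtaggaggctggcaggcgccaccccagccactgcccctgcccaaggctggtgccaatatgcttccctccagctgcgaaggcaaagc

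**Figure D1:**
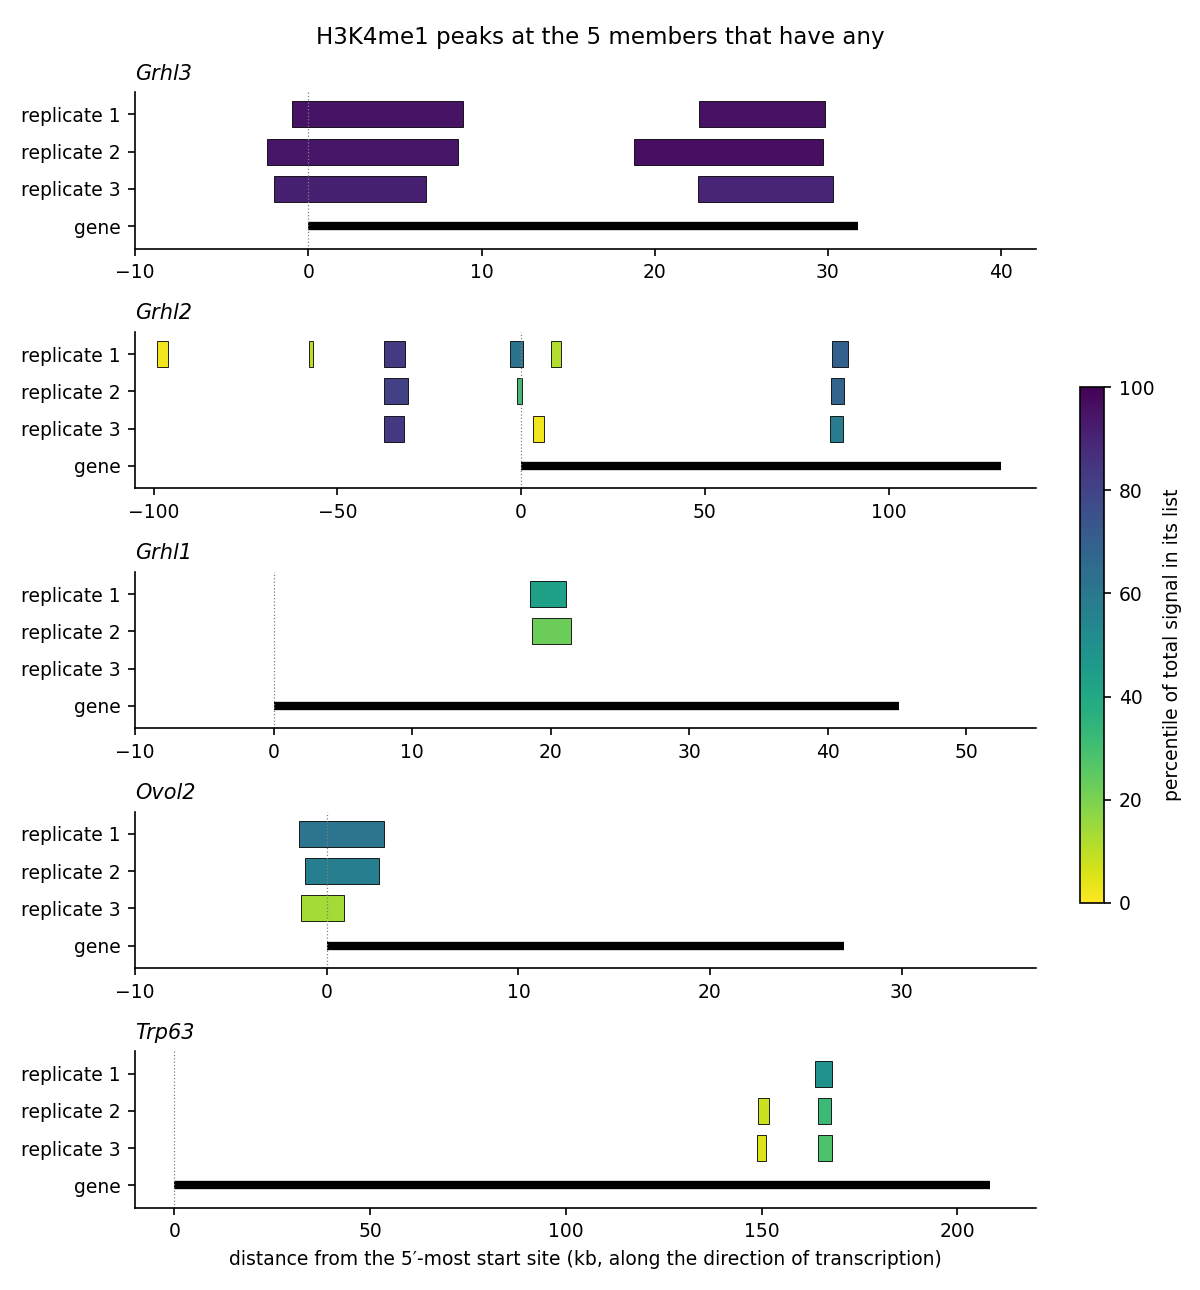
Positions of the H3K4me1 peaks along the 5 genes that have any, as distance in kb from the 5′-most start site in the direction of transcription, with 1 row per replicate, the gene body as a black bar, and the percentile of total signal as colour. Both stretches of Grhl3 and the stretches upstream of Grhl2 and in its intron 8 are seen in all 3 replicates.

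**Figure D2:**
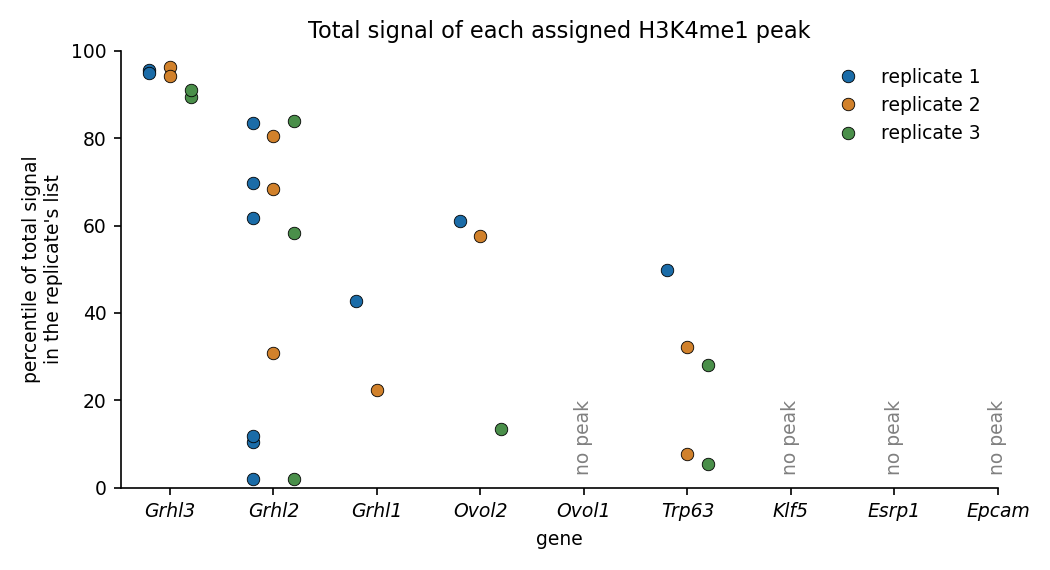
Percentile of total signal within the replicate's list for each of the 28 assigned peaks, by gene, with 1 point per peak and the replicates in different colours. Grhl3 points lie between 89.5 and 96.2, those of Grhl2 spread from 2.1 to 84.0, and 4 genes have no point.

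Grhl3, the grainyhead-like gene best known for neural tube closure and the skin barrier, lies on the minus strand of chromosome 4, from 135541888 to 135573630. It carried 2 peaks in each replicate. The first stretch, chr4:135564680-135576006, was 11.3 kb long over the merged peaks, contained the start site and exon 1, and reached into intron 1. Its percentile was 94.9, 94.3 and 91.1 in replicates 1, 2 and 3. The places of maximum signal lay within 90 bp of each other, all in intron 1, at a mean of 2.92 kb from the start site. The second stretch, chr4:135543347-135554800, was 11.5 kb long and ran over exons 8 to 15 of 16. There the percentile was 95.5, 96.2 and 89.5, and the maxima were spread over 1112 bp. In both stretches replicate 3 had the lowest percentile.

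The peaks covered 41.0, 52.5 and 39.6% of the Grhl3 window by replicate (mean 44.3% ± 7.06, SD, n = 3). At this level, 98.8% of all protein-coding genes had an equal or lower mean coverage. The other genes of the set with peaks had mean coverages of 9.56% (Ovol2), 5.19% (Grhl2), 3.26% (Grhl1) and 2.50% (Trp63). The 3 Grhl3 values did not overlap with those of any other gene of the set, whose highest value in a single replicate was 11.99%, for Ovol2. Among the 83 genes of the comparison lists described below, those closest to Grhl3 in coverage over the 3 replicates were Snai1 and Aqp1. Their mean absolute difference from Grhl3 was 4.75 and 5.41 percentage points. Snai1 encodes a repressor of epithelial genes and Aqp1 a water channel.

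The 250 bases before the Grhl3 start site lay under a peak in all 3 replicates. They are given from the RefSeq table (GRCm38.p6), chr4:135573633-135573882 on the minus strand, as the promoter within the strongest start site peak of the set. Capitals mark matches to the KLF letters GGGNGTG on the other strand.
Grhl3 promoter: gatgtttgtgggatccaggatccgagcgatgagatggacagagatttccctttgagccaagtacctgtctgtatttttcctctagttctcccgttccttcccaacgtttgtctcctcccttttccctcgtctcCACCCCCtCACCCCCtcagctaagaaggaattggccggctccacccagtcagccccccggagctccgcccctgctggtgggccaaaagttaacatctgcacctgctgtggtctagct
The KLF letters occurred at 2 places. Of all 32851 RefSeq promoter stretches of this length, 26.1% held them on either strand. The table matched 4 of the 9 genes.

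Grhl2, which controls E-cadherin and tight junction genes in many epithelia, lies on the plus strand of chromosome 15 from 37233036 to 37363569. Its peaks formed 7 regions, of which 2 recurred in every pad. The stronger one lay outside the gene, at chr15:37195657-37202185, with its maxima at a mean position of -34.2 kb from the start site, and no annotated protein-coding gene overlapped it. The percentile was 83.6, 80.6 and 84.0 by replicate (mean 82.7 ± 1.85, SD, n = 3). This was the smallest spread of percentiles among the 6 regions that all replicates shared. Its maxima, however, were spread over 2250 bp, the widest of the 6. The other, chr15:37317039-37321843, lay in intron 8, 85.5 kb into the gene on average, with percentiles of 69.8, 68.3 and 58.2.

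The start site of Grhl2 was under a peak in replicates 1 and 2 only. In this region, chr15:37230013-37233630, the percentile was 61.7 and 30.8, and the maxima lay at -97 and -216 bp from the start site. Replicate 3 alone had a peak wholly inside intron 1, at chr15:37236312-37239276, whose percentile was 2.11 and GC content 42.7%. The other 3 regions were seen in replicate 1 alone, with percentiles of 2.06, 10.4 and 11.9 and a GC content of 50.2, 63.7 and 48.1%. The farthest of them had its maximum at -97.1 kb from the start site, just inside the limit of 100 kb. The 4 regions seen in a single pad thus all ranked low in their lists.

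Grhl1, the family member linked to desmosomes in the skin, lies on chromosome 12 from 24572283 to 24617391 on the plus strand. It had a single region, chr12:24590796-24593739, in intron 8. The percentile was 42.8 in replicate 1 and 22.4 in replicate 2, and replicate 3 had no peak, the nearest one lying 91.7 kb from the gene body. Its start site was under a peak in no replicate. The grainyhead-like genes thus differed from each other: at the start site Grhl3 was marked in 3 replicates, Grhl2 in 2 and Grhl1 in 0.

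Ovol2, a zinc finger repressor that helps keep epithelial cells from a mesenchymal state, lies on the minus strand of chromosome 2 from 144305175 to 144332146. Its single region, chr2:144329164-144333596, covered the start site, exons 1 and 2 and part of intron 2. The percentile was 61.0, 57.6 and 13.4 in replicates 1, 2 and 3. The peak of replicate 3 was also the shortest, with 2.26 kb against 4.43 and 3.91 kb, and its total signal was 1.14 times the minimum of its list. Ovol1, the relative that acts later in epidermal differentiation, had none. The closest peak to its body lay 92.0, 91.3 and 129.5 kb away and was nearer to the start site of Ccdc85b or Map3k11. Over all genes, 38.8% had their nearest peak at least as far away as the closest of these.

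Trp63 spans 208.3 kb of chromosome 16, from 25683763 to 25892102 on the plus strand, and gives rise to long (TA) and short (ΔN) forms of p63 from separate promoters. Neither promoter was under a peak in any replicate. Both of its regions lay in intron 4 of the longest form. One, chr16:25847481-25851831, was found in all replicates with percentiles of 49.8, 32.2 and 28.2. The other, chr16:25832479-25835679, was absent from the list of replicate 1 and had percentiles of 7.83 and 5.40 in replicates 2 and 3. The peaks covered 1.89, 2.88 and 2.73% of the Trp63 window. A long gene meets a peak more often: of the 589 genes with a window of like length, 52.6% had a peak in all 3 replicates. The same share was 13.7% for genes like Grhl3 in window length, 12.5% for Ovol2 and 38.5% for Grhl2.

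Klf5, a Krüppel-like factor of proliferating epithelial cells, had no peak in its window, and the closest lay 254.1, 262.6 and 253.5 kb from its body. Some peaks beyond the limit of 100 kb had their nearest start site at Klf5. A peak at chr14:99577362-99581712 in replicate 3, about 281 kb from the start site, overlapped one in replicates 1 and 2, and the percentiles were 23.7, 33.5 and 60.6. Replicate 3 had another one 305 kb away, with a percentile of 18.1. These stand outside the rule and are not counted, nor is a peak of replicate 1 within 20 kb of Grhl3 that was nearer to the start site of Stpg1 and had a percentile of 7.51. Esrp1 had its closest peak 190.5, 191.3 and 191.0 kb from the body, and Epcam 132.9 kb in replicates 1 and 2 and 133.0 kb in replicate 3. Those peaks were nearest to the start sites of Fsbp and Calm2. Over all genes the median distance to the nearest peak was 49.5 kb, and 20.97, 25.7 and 31.8% of genes were at least as far from one as Klf5, Esrp1 and Epcam. With peak lists alone, a signal below the limit of the list was not detectable, so the absence of a peak does not show that the mark was absent.

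In the gene windows, 5, 5 and 4 of the 9 genes had a peak in replicates 1, 2 and 3. Over all protein-coding genes the share was 24.9, 22.6 and 19.6%. A peak in every replicate was found for 4 of the 9 genes, against 15.5% of all genes. With the stronger 50% of each list it was 2, since the peaks of Trp63 and one of Ovol2 rank low. The start site itself was under a peak in all 3 replicates for Grhl3 and Ovol2, 2 of the 9 genes, against 2.88% of all genes. Peaks covered on average 7.44, 8.28 and 5.89% of the 9 windows and 4.05, 4.15 and 2.70% over all genes. The excess of the first set of values came from Grhl3, with 41.0, 52.5 and 39.6%. Without Grhl3, the mean over the other genes of the set was below that of all genes in every replicate. Among these, Ovol2 (9.56%) and Grhl2 (5.19%) had a mean coverage above that of all genes, 3.64%. Grhl1 (3.26%) and Trp63 (2.50%) were below it, and Ovol1, Klf5, Esrp1 and Epcam had no peak. The median percentile of the assigned peaks was 61.0, 57.6 and 43.2 by replicate (mean 53.9 ± 9.46, SD, n = 3), where the middle of each list is at 50 by construction. No test was made, since the genes were chosen with results of these data known and the study has a single group of 3 replicates.

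Replicate 3 is depleted of signal at high GC content. Its peaks had a median GC content of 45.7%, against 48.4 and 48.7% in replicates 1 and 2. The 8916 regions in all 3 replicates were put into 10 groups of equal size by GC content. The median log2 ratio of signal share, replicate 3 to replicate 2, fell from 0.98 in the group of lowest GC content to -0.84 in the highest. The 6 regions that all replicates shared here had a GC content between 45.0 and 57.3%. At Grhl3 the log2 ratio was -0.50 in the first stretch (GC content 52.4%) and -0.94 in the second (53.6%), where the medians of all regions in the same groups were -0.53 and -0.84. At the Ovol2 start it was -0.78 (57.3%), against -0.84. The 3 GC-rich regions therefore had a lower share in replicate 3, by about the amount found in other regions of their GC content.

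The regions of lower GC content varied more about their groups. Upstream of Grhl2 the log2 ratio was 0.15 (GC content 47.6%) and in its intron 8 it was -0.24 (48.2%), against a median of 0.05 for both, the latter value lying below the lower quartile of -0.16. In Trp63 intron 4 it was 0.06 (45.0%), against 0.49, and also below the lower quartile of its group, 0.27. Over the 6 regions the median difference from the group was -0.03, with a range from -0.44 to 0.10. Between replicates 1 and 2 the log2 ratio at the same regions ran from -0.38 to 0.03.

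**Figure D3:**
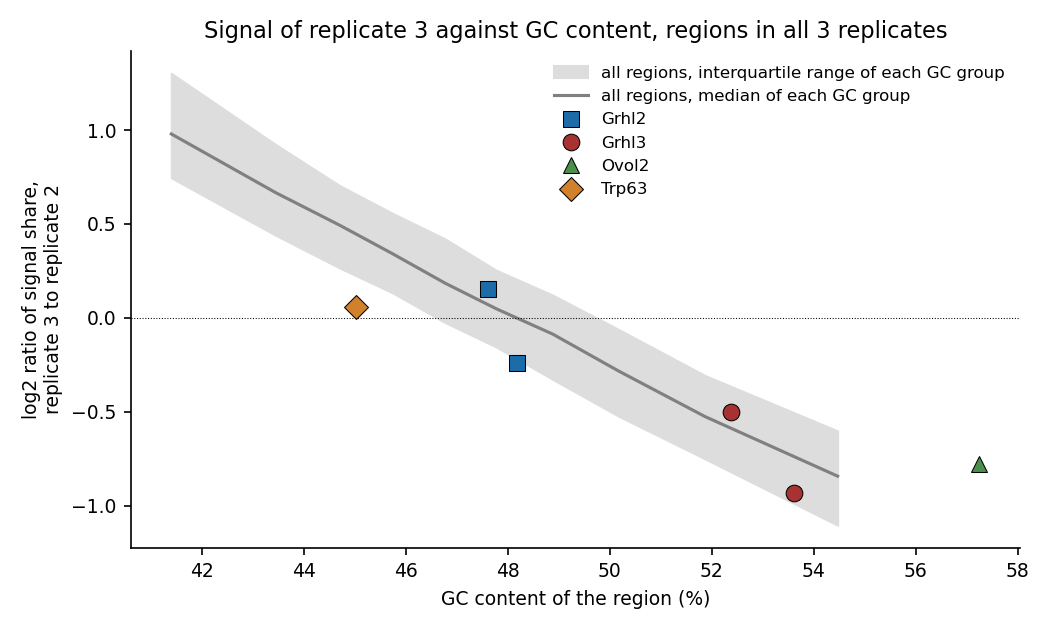
Log2 ratio of signal share, replicate 3 to replicate 2, against the GC content in percent of each region, for the 6 shared regions at Grhl3, Grhl2, Ovol2 and Trp63 (points). The line and grey band are the median and interquartile range of all 8916 shared regions in 10 GC groups, and the points of Trp63 (0.06) and Grhl2 intron 8 (-0.24) lie below the band while the Grhl3 points lie within it.

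GC content also went with which regions were missing from replicate 3. Of all 11544 regions with peaks in replicates 1 and 2, 77.2% had one in replicate 3, from 99.0% in the lowest GC group to 38.6% in the highest. The 9 genes had 8 such regions, and 6 of them recurred in replicate 3. The missing ones were the Grhl2 start (GC content 50.03%) and Grhl1 intron 8 (48.7%), in groups where 70.2 and 79.8% of regions recurred. Summed over the 8 regions, the shares of the GC groups came to 5.70 regions. With groups of both GC content and signal in replicates 1 and 2, chosen after the data were seen, the sum was 6.41.

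Markers of other kinds were counted in the same way. Of 36 other epithelial genes (adhesion, junction, keratin and regulator genes), 20, 21 and 8 had a peak in replicates 1, 2 and 3, and 7 had one in all, while without replicate 3 the count was 18. As shares, 55.6, 58.3 and 22.2% of the list had a peak, beside 24.9, 22.6 and 19.6% of all genes, and 19.4% had one in all replicates, beside 15.5%. The values in replicate 3 and in all replicates were thus near those of all genes. At 13 of the 36 genes no replicate had a peak, which was so for 71.2% of all genes. Of the 7 with a peak in all replicates, Rab25, Tfap2a, Tfap2c and Itga6 had the highest mean percentiles of their strongest peak. For Rab25, a GTPase of apical recycling, the percentile was 97.4, 94.9 and 93.0, and for Tfap2a, a regulator of ectoderm and neural crest, 94.8, 97.8 and 87.9. Tfap2c, its close relative, had 85.8, 91.8 and 82.9, and Itga6, an integrin of basal epithelial cells, 73.6, 52.5 and 39.5. In 11 of the 36 genes replicates 1 and 2 had a peak and replicate 3 did not, as at Grhl1. Over all genes this was so for 1199 of 21755.

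**Figure D4:**
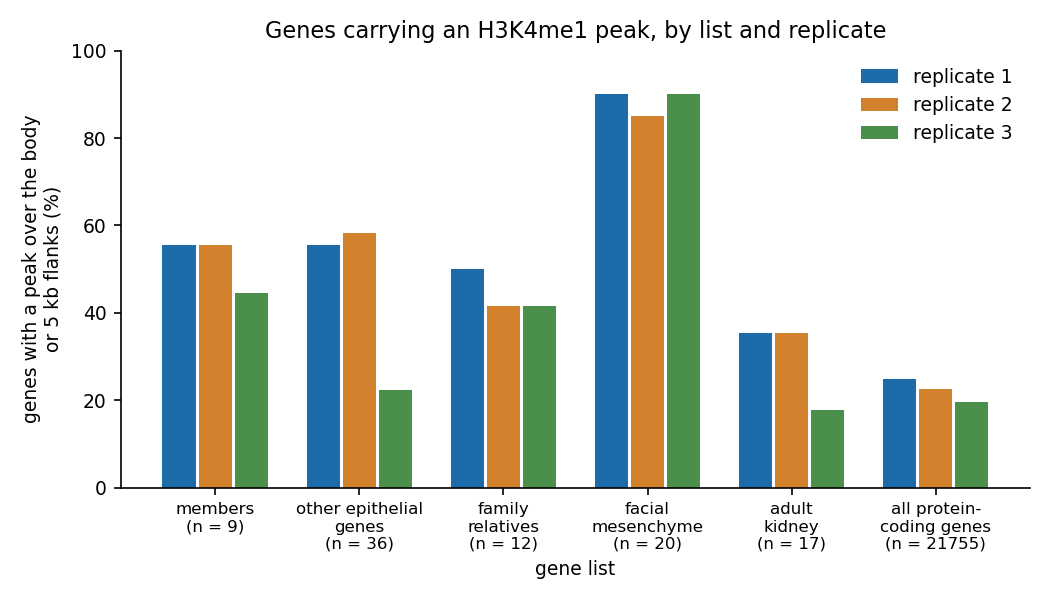
Percentage of genes with an H3K4me1 peak over the body or the 5 kb flanks in each replicate, for the 9 genes (members), the comparison lists and all protein-coding genes. Bars are single replicates: the other epithelial genes go from 55.6 and 58.3% in replicates 1 and 2 to 22.2% in replicate 3, and facial mesenchyme has 90, 85 and 90%.

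Of 20 facial mesenchyme genes, 18, 17 and 18 had a peak, and 15 had one in all replicates. As shares these were 90, 85 and 90%, and 75% in all, beside 24.9, 22.6 and 19.6%, and 15.5% in all, of all genes. The highest were Prrx2, Alx4, Twist1 and Msx1, transcription factors of the craniofacial mesenchyme. Their strongest peaks had percentiles between 92.0 and 99.9 in every replicate, and the strongest Grhl3 peak had 95.5, 96.2 and 91.1. Of 17 adult kidney genes, 6, 6 and 3 had a peak. It was present in all replicates at 3, and 11 of the 17 had none in any, beside 71.2% of all genes. The strongest peak of Aqp1 had percentiles of 97.6, 97.9 and 71.9, above the strongest of Grhl3 in replicates 1 and 2 and below it in replicate 3. Cubn, a receptor of the kidney tubule, had 59.8, 54.0 and 66.5, and Slc12a1, a salt transporter, 57.0, 9.27 and 22.0. By replicate the share of kidney genes with a peak was 35.3, 35.3 and 17.6%, beside 24.9, 22.6 and 19.6% of all genes. It was thus above that of all genes in replicates 1 and 2 and near it in replicate 3. The share with a peak in all replicates was 17.6%, beside 15.5% of all genes, and without replicate 3 the count was 6 in place of 3. Gene windows also differed in length between lists, and the shares were not matched for it. Their median was 47.0 kb for the kidney genes and 27.4 kb for all genes. It was 41.7 kb for the 9 genes, 23.3 kb for the other epithelial genes and 34.2 kb for the mesenchymal ones.

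The replicate 3 list held fewer regions of the other epithelial genes and more of the mesenchymal genes than GC content alone gave. Of 24 epithelial regions in replicates 1 and 2, 10 recurred in replicate 3, where the GC groups summed to 15.6 and the groups of GC content and signal to 12.5. Of 28 mesenchymal regions 27 recurred, where the sums were 21.1 and 25.02. The median percentile in replicates 1 and 2 was 41.6 for the epithelial regions, 81.5 for the mesenchymal ones and 64.2 for the 8 regions of the 9 genes. Whether pads differed in their share of epithelium was not tested.

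**Figure D5:**
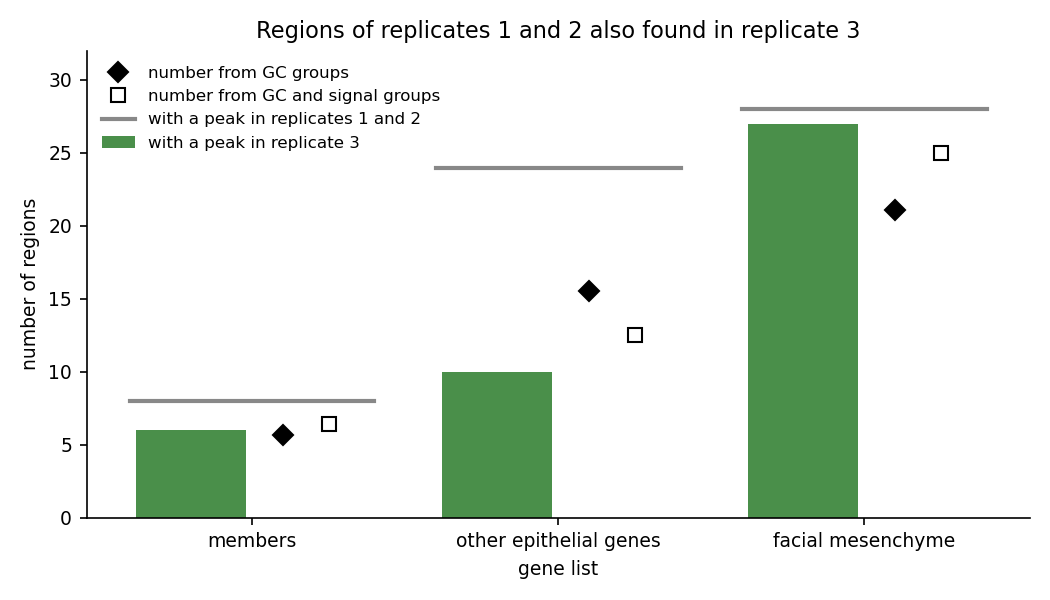
Number of regions with peaks in replicates 1 and 2 (grey line), number of these with a peak in replicate 3 (bar), and the numbers that the shares of all regions in the same GC groups (diamond) and GC and signal groups (square) sum to. The bar is 6 for the 9 genes (members), 10 for other epithelial genes and 27 for facial mesenchyme.

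Relatives of the 9 genes by family were counted too. Of 12 such genes, 6, 5 and 5 had a peak in replicates 1, 2 and 3, and 3 in all. As shares these were 50, 41.7 and 41.7%, and 25% in all, beside 24.9, 22.6 and 19.6%, and 15.5% in all, of all genes. Klf3 was the strongest, with percentiles of 97.8, 96.8 and 98.4, and its relative Klf5 had no peak. Tfcp2, a broadly expressed relative of the grainyhead-like genes, had 59.8, 42.1 and 59.5, and Trp53 had 18.9, 13.4 and 24.7. Esrp2, the partner of Esrp1 in splicing, had a peak in replicates 1 and 2 (42.1 and 43.5). Esrp2 is also among the 36 epithelial genes. No peak was found in any replicate at Tfcp2l1, Ubp1, Ovol3, Klf2 and Klf6.

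The shared regions were searched for letters that members of the set are known to bind. These were AACNNGTT for grainyhead-like factors, CCGTTA for OVOL, GGGNGTG for KLF, and the p63 response element (a pair of cores, each a C and a G around 2 bases that are A or T, with 6 bases between the cores), on both strands, within 1000 bases centred on the maximum of replicate 1. Over all 8916 regions in 3 replicates, 13.8% held the grainyhead-like letters, 6.91% those of OVOL, 58.6% those of KLF and 26.9% the p63 element. Within these 1000 bases, none of the 4 patterns was found in either stretch of Grhl3 or in Grhl2 intron 8. The Ovol2 start held the KLF letters at 3 places. The stretch upstream of Grhl2 held 1 p63 element, at -455 bp from the maximum. Trp63 intron 4 held 1 match to the grainyhead-like letters, at -385 bp from the maximum. These patterns were held by 26.9 and 13.8% of all regions, and by no other shared region of the set. Single matches at such rates do not set these regions apart. Both matches are shown on the plus strand with 12 bases on either side and the match in capitals.
p63 element upstream of Grhl2, chr15:37199070-37199107: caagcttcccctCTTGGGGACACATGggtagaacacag
Grainyhead-like letters in Trp63 intron 4, chr16:25849344-25849375: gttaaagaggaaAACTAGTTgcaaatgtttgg
A match describes the letters only and is no measure of binding.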

How the data were processed

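H3K4me1 CUT&Tag was analysed in 3 whisker pads. Peaks were called by the authors with SEACR 1.3 on each replicate by itself (stringent, without IgG, top 1% of signal blocks), and they deposited the total and maximum signal of each peak, in whole numbers. The submitters' processing notes also name Bowtie2 2.3, SAMtools 0.1.19, bedtools and mm10, which is GRCm38. Treatment of duplicate reads is not given in the sources used here. GENCODE M21 gave gene bodies and 41135 start sites of full-length (basic) protein-coding transcripts, a choice made after the data were seen. Distances between a peak and a start site ran from the place of maximum signal. Peaks of different replicates were merged by an overlap of at least 1 bp. GC content came from GRCm38, over merged regions, in 10 groups of equal size, or in 5 by GC content crossed with 4 by signal. A signal share is a region's part of the summed total signal over regions in all replicates. Python 3.11.15 (pandas 2.3.3, numpy 2.4.6) was used, and the steps were tested on simulated peaks.

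All 9 genes are named, with up to 4 genes per list by mean percentile of the strongest peak among those with a peak in all replicates, family relatives by name, and the genes closest to Grhl3 in coverage. Some genes of the lists are counted but not reported by name here. The strongest shared region of 4 genes was to be shown, and that of Ovol2 is not printed. Genes of like length were those with a gene window, flanks included, from 0.8 to 1.25 times as long as that of the gene. Members and lists were chosen with earlier results of these data known. No test was made. Replicates are separate pads by title, and a spread between them may still be partly technical.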

Additional observations from a re-analysis of the deposited data

How the results depend on the processing

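Of 98 values over 14 results under other settings, 84 stayed close to the reported value and 14 moved. The limit for counts was wide. With the strongest 10000 peaks, a fall from 6 to 4 shared regions and from 9.33 to 6.33 peaks was still scored as close. A median percentile was scored as close within the SD over replicates. A change of direction was not scored. The median difference of replicate 3 from the GC groups was -0.03. It was 0.02 by maximum signal and 0.12 against replicate 1, so its sign depended on the setting. Keeping the stronger 50% of each list gave a mean of 5 peaks, a median percentile of 81.3, 2 of the 9 genes with a peak in all replicates, 3 other epithelial genes and 1 family relative. Keeping the strongest 10000 peaks gave a median percentile of 73.6, 2 of the 9 genes, 1 start site and 4 other epithelial genes. Both settings remove weak peaks by construction. Ranking by maximum signal lowered the median percentile to 43.5. With 20 kb flanks 4.47% of the windows was covered, and without flanks 1 family relative remained with a peak in all replicates. Leaving out 1 replicate in turn gave 7 to 18 other epithelial genes and 3 to 6 adult kidney genes with a peak in all remaining replicates, the upper values without replicate 3. Using all annotated transcripts for start sites, added after the data were seen, moved no value by more than the spread. No paired analysis was possible because only a single group was analysed here, and pad numbers are shared with IgG alone. A peak list holds no signal under its limit, so weak marking at Ovol1, Klf5, Esrp1 and Epcam could not be measured.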
